A study of Mus musculus with 8 samples.

Results

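Globins are the chains of hemoglobin, the oxygen carrier of red cells. The genes described here are the embryonic beta-like genes Hbb-bh1 and Hbb-y, the embryonic alpha-like gene Hba-x, the adult alpha genes Hba-a1 and Hba-a2, and the adult beta genes Hbb-b1 and Hbb-b2. Members were the array probes whose RefSeq accession maps to 1 of these 7 symbols. There were 7 such probes for 6 genes among 55681 probes, with 2 probes for Hbb-y and none for Hbb-b1. All 7 were well above background on all 8 arrays, and the 6 genes were among 14504 genes tested.

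RNA came from mouse iRUNX1 cells, labelled strain C57BL/6, which carry a doxycycline-inducible Runx1 gene (Tet-on). Flk-1+ cells were selected on magnetic columns from embryoid bodies after 3.25 days, cultured in blast medium, selected for Flk-1 again and cultured for 2 days. The labels name the result hemogenic endothelium, endothelial cells able to give rise to blood. Induced cells (label "Runx1 expression") received doxycycline overnight at 0.3 µl/ml, the unit the labels give, and uninduced cells (label "control") received none. Both groups carry the construct, so an effect of doxycycline and one of Runx1 cannot be told apart here, and the labels do not say whether the cells keep their own Runx1. There were 3 biological replicates a group, and 1 further array a group titled technical replicate 4, for which the labels do not name the replicate that was repeated.

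In the mouse, Hbb-y, Hbb-bh1 and Hba-x are active in primitive red cells of the yolk sac, together with the adult alpha genes, and fetal liver and bone marrow red cells use the adult genes alone. The alpha-like genes lie together on chromosome 11 and the beta-like genes on chromosome 7, each cluster under a distant shared enhancer region. Laboratory strains carry different adult beta genes: Hbb-b1 and Hbb-b2 belong to one haplotype, and C57BL/6 carries Hbb-bs and Hbb-bt in their place. The Hbb-bt probe is described beside the members and is not counted among them.

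Values are log2 processed signals relative to the 75th percentile of the same array, called levels below. A level of 0 equals that percentile, and levels of different probes are not compared. The percentile was 543 to 973 on the 3 induced arrays and 338 to 699 on the 3 uninduced ones. Of the noncontrol spots, 61.3% to 70.4% were well above background on induced and 55.6% to 64.8% on uninduced arrays. Runx1 was not higher in the arrays labelled as induced: probe A_55_P2183438 read -6.14, -5.71 and -4.95 on them against -4.71, -4.72 and -4.28 on uninduced ones, and none of the 6 arrays had the other probe, A_51_P206585, well above background. Which part of the transcript these probes read, and whether the construct holds it, was not tested, so Runx1 does not check the labels. Induced and uninduced therefore stand for the arrays so labelled, and each direction given rests on those labels. The 8 endothelial markers (Cdh5, Pecam1, Kdr, Tek, Tie1, Eng, Esam, Emcn) passed the background test on each of the 6 replicate arrays. Of 6 red cell markers, 5 (Klf1, Gata1, Alas2, Epor and Slc4a1) passed it on all 6 arrays.

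The promoter table of RefSeq (GRCm38.p6, whereas the array files name mm9) held 4 of the 7 members, Hbb-y, Hba-x, Hba-a1 and Hba-a2. The sequences below are the 150 bases before the start of 3 of them and of Hbb-bt, 5′ to 3′ on the strand of the gene. They are shown because these genes moved together in the data, and a link between these letters and that movement was not tested. Hba-a2 is not printed, because its entry repeats that of Hba-a1 moved by 3 bases. Capitals mark CACCC, a box bound by Klf1 and its relatives, and the CCAAT box. For GATA factors they mark AGATAA and also its variant TGATAA, and for RUNX factors TGTGGT. Each of these was searched on both strands. They also mark TATAAA, its variant TATAAG and its variant CATAAA, searched on the gene's strand only.
Hbb-y, chr7:103853208-103853357, minus strand: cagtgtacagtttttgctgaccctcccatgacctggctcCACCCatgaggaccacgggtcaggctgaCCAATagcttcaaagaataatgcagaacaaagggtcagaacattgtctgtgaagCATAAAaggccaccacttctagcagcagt
Hba-x, chr11:32276450-32276599, plus strand: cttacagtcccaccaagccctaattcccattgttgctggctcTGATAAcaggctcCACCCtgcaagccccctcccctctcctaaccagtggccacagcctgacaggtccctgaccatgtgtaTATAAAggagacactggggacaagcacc
Hba-a1, chr11:32283522-32283671, plus strand: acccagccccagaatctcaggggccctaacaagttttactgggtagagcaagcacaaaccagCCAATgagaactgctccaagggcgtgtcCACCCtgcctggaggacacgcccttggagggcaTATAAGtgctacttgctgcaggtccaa
Hbb-bt, chr7:103813924-103814073, minus strand: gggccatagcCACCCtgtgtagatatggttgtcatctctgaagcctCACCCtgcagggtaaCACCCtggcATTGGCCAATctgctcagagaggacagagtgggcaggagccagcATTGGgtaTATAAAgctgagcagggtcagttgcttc
Promoter entries of 300 bases were slid along each other without gaps. Moved by 3 bases, those of Hba-a1 and Hba-a2 were identical at 297 of 297 bases, while those of Hbb-bt and Hbb-bs matched at 56.2% of 299 bases. Without gaps, an insertion or deletion lowers such a match, so the second value does not show how alike these entries are once gaps are allowed. Each of the 4 windows holds CACCC, which 37.4% of 32851 promoter windows of this length hold, and a TATA-like match, held by 10.4%. CCAAT is in 3 of the 4 (24.5% of all), with matches on both strands in Hbb-bt, where 2 of them lie side by side. The GATA letters are in Hba-x only (9.65% of all). The letters TGTGGT are in none of the 4 windows (8.4% of all), which says only that they are not within these 150 bases.

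The comparison asks how the globin genes stood after Runx1 induction. Every globin member had a lower level in the induced than in the uninduced array of each of the 3 pairs, and in the technical repeat pair. The fitted differences were -1.20 to -1.67, or 2.30- to 3.18-fold lower. For each member the uninduced cultures differed among themselves by more than this, over ranges of 3.02 to 4.12 log2 units. In limma without a block for the replicate number, 0 of the 6 members passed (adjusted p under 0.05), and 0 had an unadjusted p under 0.05, which 21.6% of all genes had. With the replicate number as a block, 5 of 6 fell. Among all 14504 genes 2.16% fell and 4.14% rose without the block, and 6.81% fell and 9.37% rose with it. In addition, 21.8% of genes were lower in all 3 pairs, or 16.9% with the technical pair as well. The members' median change was -1.50, against 0.09 over all genes. Same-numbered arrays deviated together from their group means over all genes, with correlations of 0.65, 0.45 and 0.43 for replicates 1, 2 and 3, so the numbers were taken to pair the arrays.

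**Figure D1:**
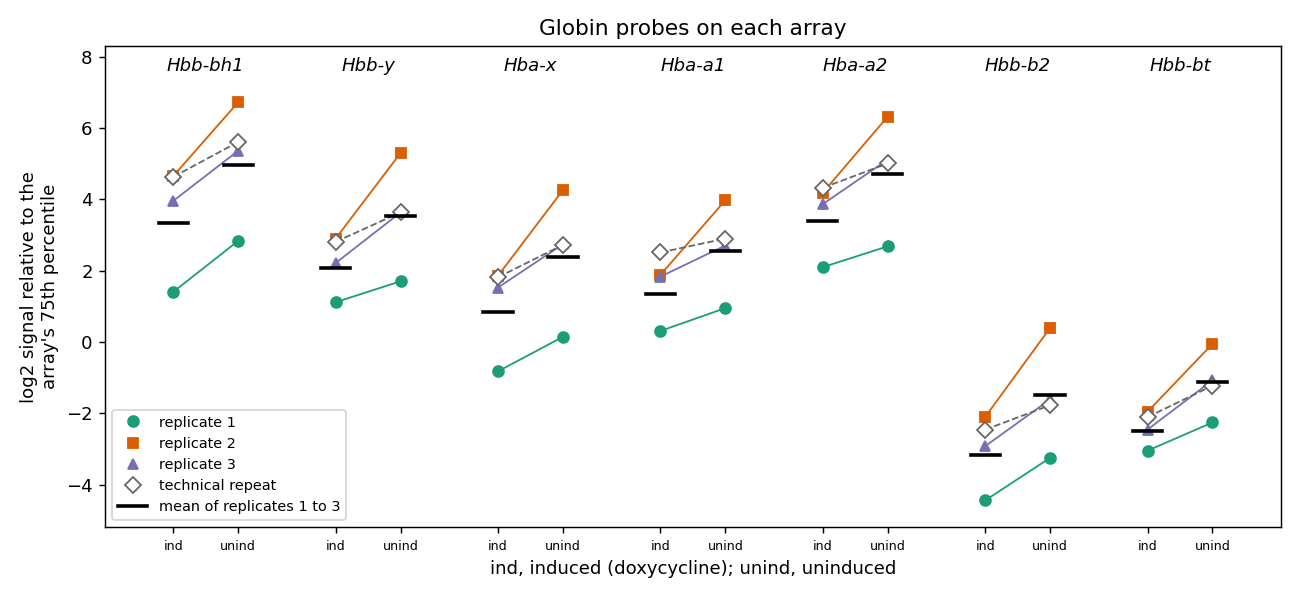
Level of each globin member, by the brighter of the 2 Hbb-y probes, and of Hbb-bt (log2 signal relative to the array's 75th percentile) on induced (left of each pair of columns) and uninduced arrays. Lines join arrays of the same number, open diamonds are the technical repeats, and black bars are means of replicates 1 to 3. Replicate 1 is lowest in each column and every line is lower at its induced end.

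Hbb-bh1, an embryonic beta-like chain, read 1.40, 4.65 and 3.96 on induced replicates 1, 2 and 3 and 4.63 on the induced technical repeat. Its uninduced levels were 2.84, 6.72 and 5.36, with 5.61 on the uninduced technical repeat. The groups overlapped, because uninduced replicate 1 lay below induced replicates 2 and 3. None of the 6 members had all 3 induced levels below all 3 uninduced ones, as 8.71% of all genes had. Means were 3.34 ± 1.71 in induced and 4.97 ± 1.97 in uninduced cells (SD, n = 3 each). The change was -1.64, with SE 1.18 and adjusted p 0.449 in limma without the block. With the block the SE was 0.18 and the adjusted p 0.00592, the lowest among the members.

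Hbb-y, the other embryonic beta-like chain, was measured by 2 probes. The brighter, A_55_P1967478, read 1.11, 2.90 and 2.21 on induced arrays and 1.70, 5.30 and 3.63 on uninduced arrays of replicates 1, 2 and 3. The technical repeats read 2.81 induced and 3.63 uninduced. Its change was -1.47 (SE 0.91, adjusted p 0.389 in limma), and with the block the SE was 0.35 and the adjusted p 0.0492. The second probe, A_55_P1967481, gave a change of -1.47 too, and the offset between these probes had an SD of 0.14 over the 8 arrays. Fitted with every kept probe and the block, where p is adjusted over more tests, neither passed in limma (adjusted p 0.0706 and 0.0918).

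Hba-x, the embryonic alpha-like zeta chain, read -0.82, 1.86 and 1.53 on induced arrays and 0.14, 4.26 and 2.74 on uninduced ones. The technical repeats read 1.82 induced and 2.72 uninduced. The groups overlapped, with the lowest uninduced value again in replicate 1. The change was -1.53 (SE 1.15, adjusted p 0.468 in limma), and with the block the SE was 0.30 and the adjusted p 0.0302.

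Hba-a1, an adult alpha chain gene, read 0.31, 1.88 and 1.83 on induced arrays against 0.95, 3.97 and 2.70 on uninduced ones, with 2.51 on the induced and 2.90 on the uninduced technical repeat. Its change was the smallest of the 6 members, -1.20 (SE 0.80, adjusted p 0.416 in limma), and it did not pass with the block (SE 0.30, adjusted p 0.0582). Hba-a2, the other adult alpha gene, read 2.10, 4.19 and 3.86 on induced arrays against 2.68, 6.32 and 5.11 on uninduced ones, with 4.32 on the induced and 5.01 on the uninduced technical repeat. Its change was -1.32 (SE 0.98, adjusted p 0.462 in limma), and with the block the SE was 0.30 and the adjusted p 0.0454. The offset between the 2 alpha probes had an SD of 0.27 over the 8 arrays. Their transcripts are closely similar and the array files hold no probe sequences, so signal shared between these probes was not tested, and the 2 genes do not count as separate evidence.

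Hbb-b2, an adult beta gene, read -4.44, -2.10 and -2.92 on induced arrays against -3.25, 0.39 and -1.61 on uninduced ones, with -2.46 on the induced and -1.77 on the uninduced technical repeat. The change was -1.67 (SE 0.98, adjusted p 0.368 in limma), and with the block the SE was 0.28 and the adjusted p 0.0206. Hbb-bt, an adult beta gene of the C57BL/6 haplotype, read -3.05, -1.96 and -2.46 on induced arrays against -2.26, -0.05 and -1.08 on uninduced ones. It was lower by 1.36 (SE 0.56, adjusted p 0.228 in limma, and 0.0205 with the block). Hbb-bs, the other one of that haplotype, was well above background only on replicate 2, at -4.81 in induced and -2.16 in uninduced cells.

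How far the adult beta probes read embryonic beta-like RNA was not tested. The offset of the Hbb-b2 probe to the brighter Hbb-y probe had an SD of 0.23 over the 8 arrays, to the Hbb-bh1 probe 0.53, and to the Hbb-bt probe 0.55. The Hbb-b2 values thus varied less relative to those of Hbb-y than relative to those of the other adult beta probe. On a linear scale the Hbb-b2 probe had a processed signal of 44.7 to 138 on induced and 73.6 to 497 on uninduced replicate arrays. Since the labelled strain carries Hbb-bs and Hbb-bt, which transcript the Hbb-b2 probe reads was not tested, and its values are those of a probe rather than of that gene.

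**Figure D2:**
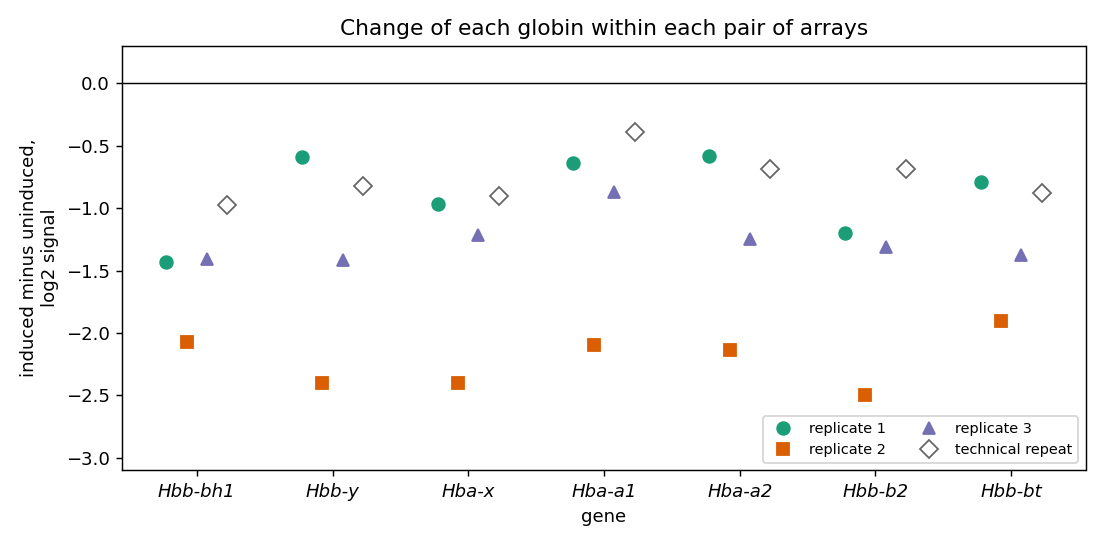
Difference between the induced and the uninduced array (log2) for each globin in pairs 1, 2 and 3 and in the technical repeat pair (open diamonds). Every point is below 0, and pair 2 is the lowest for each gene.

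Within pairs, the 6 members differed by -0.58 to -1.43 in replicate 1, by -2.07 to -2.50 in replicate 2, by -0.87 to -1.42 in replicate 3 and by -0.39 to -0.98 between the technical repeats. For all 6, the largest difference was in replicate 2, which had the highest level of the 3 replicates in both groups, and replicate 1 had the lowest. Across the 3 uninduced arrays Hba-x spanned 17.4-fold, Hbb-bh1 14.8-fold and Hba-a1 8.14-fold. Of all genes, 99.4% to 99.8% spanned a smaller range on these arrays than the member compared. The median change over members was -0.69 without induced replicate 1, -0.59 without uninduced replicate 2 and -2.47 without uninduced replicate 1. None of the 6 passed in limma without the block when any 1 array was left out.

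**Figure D3:**
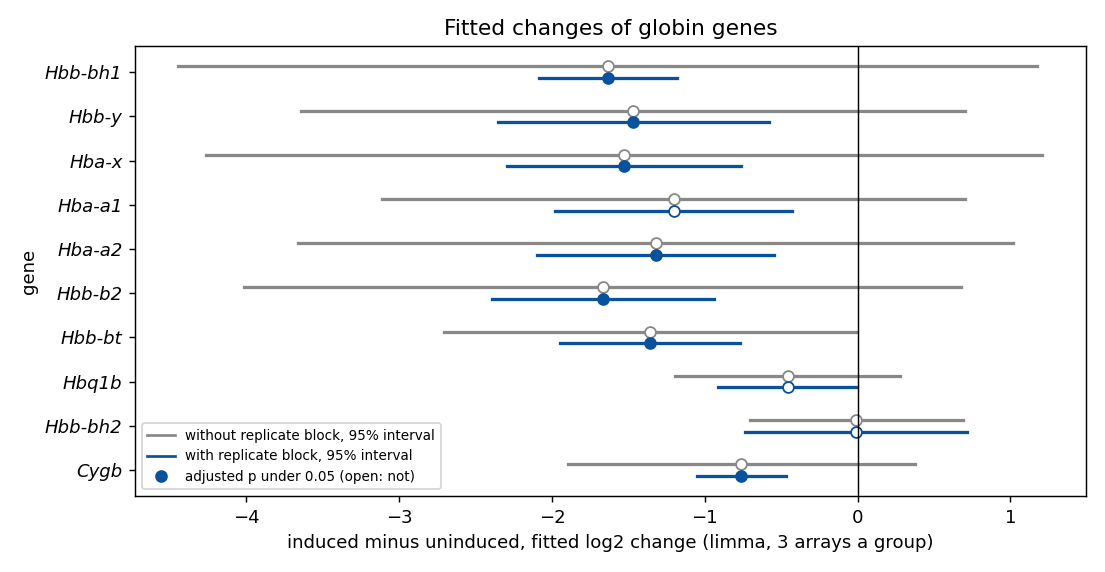
Fitted log2 change (induced minus uninduced) with its 95% interval in limma, without (grey) and with (blue) the replicate block, for the members and other globin family genes. Filled points have an adjusted p under 0.05. The grey intervals of the 6 members cross 0 and the blue ones lie below it.

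The block made the call for 5 members. Its 95% intervals ran from -2.09 to -1.18 for Hbb-bh1 and from -2.36 to -0.58 for Hbb-y. Without pair 1, the members that fell with the block were Hbb-bh1, Hbb-y and Hba-a2, and without pair 2 they were Hbb-bh1, Hba-x and Hbb-b2. Without pair 3 all 6 passed. Hbb-bh1 was the 1 member that passed in each of these fits.

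The scale itself differed between the groups. Against the 4 brightest E1A spike-in probes, the 75th percentile was higher in induced cells by 1.02, 0.75 and 1.61 in replicates 1, 2 and 3 and by 0.35 between the technical repeats. Scaled to the spike-ins, the changes were -0.08 for Hba-a1 to -0.54 for Hbb-b2, and 0 of 6 passed in limma without the block and 0 with it, with 0 members at an unadjusted p under 0.05 in either fit. The SE was the same for each member, 0.72 without the block and 0.35 with it. These p-values therefore do not measure each gene's own spread. Of all genes, 5.04% passed without the block and 86.8% with it, 28.6% and 87.5% had an unadjusted p under 0.05, and the median change was 1.22. In 8 of the 18 combinations of member and pair the induced array was then lower, 6 of them in replicate 2. Before any scaling, the processed signal of all 6 members was lower in the induced array of all 3 pairs, as it was for 4.42% of all genes. Between the technical repeats it was lower for 3 members and higher for 3. In such bulk RNA, fewer red cells and less globin RNA per cell cannot be told apart.

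The members were also set against each other by their changes. The mean change of the embryonic genes (Hbb-bh1, Hbb-y, Hba-x) minus that of the adult alpha genes was -0.38, -0.18 and -0.29 in pairs 1, 2 and 3. The mean of these differences was -0.28 ± 0.10 (SD, n = 3 pairs), with an exact two-sided sign-flip p of 0.25, the smallest that 3 pairs allow. Hbb-bh1 minus Hbb-y was -0.84, 0.33 and 0.01 over the pairs (exact two-sided sign-flip p 1), and its sign changed with the pair. The technical repeat pair gave -0.37 for the first and -0.15 for the second of these contrasts. In the first, stage and locus cannot be told apart, since Hbb-bh1 and Hbb-y lie at the beta locus and the adult genes at the alpha locus. Beta locus genes (Hbb-bh1, Hbb-y, Hbb-b2) minus the alpha locus genes gave -0.34, -0.11 and -0.27 (exact two-sided sign-flip p 0.25). Within the alpha locus, Hba-x minus Hba-a2 was -0.38, -0.27 and 0.03, and its sign changed with the pair.

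Of 8 further globin family genes with a probe, 4 passed the filter on dim probes. Besides Hbb-bt, Hbq1b, an alpha-like theta gene, changed by -0.46 (SE 0.31, adjusted p 0.422 in limma), and Hbb-bh2, a beta-like gene of the same cluster, by -0.01 (SE 0.29, adjusted p 0.987). Cygb, cytoglobin, a globin of many tissues outside the hemoglobin clusters, was lower by 0.76 and fell with the block only (adjusted p 0.392 in limma, 0.0141 with the block). Between the technical repeats it was higher in induced cells, by 0.44. No array had Hbq1a well above background. Of 12 genes tested that lie beside the globin clusters, 0 fell and 0 rose in limma, with 5 at an unadjusted p under 0.05, against 21.6% of all genes. With the block 0 fell and 2 rose (Rrm1 and Polr3k), against 9.37% of all genes that rose. Their median change was 0.23. The 2 brightest, Rrm1 beyond the beta cluster and Snrnp25 beside the alpha cluster, changed by 0.55 (SE 0.16) and 0.30 (SE 0.14), with adjusted p of 0.103 and 0.285 in limma.

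Other genes of the red cell programme were taken in 4 lists with 76 genes tested, of which 3 fell, 6 rose and 67 did not pass, while 6.31% of all genes passed. The 9 calls became 4, 3 and 2 without induced replicate 1, 2 or 3, and 7, 3 and 2 without uninduced replicate 1, 2 or 3. With the block 7 fell and 9 rose, while 16.2% of all genes passed. The median change over the 76 genes was 0.14, against 0.09 over all genes.

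**Figure D4:**
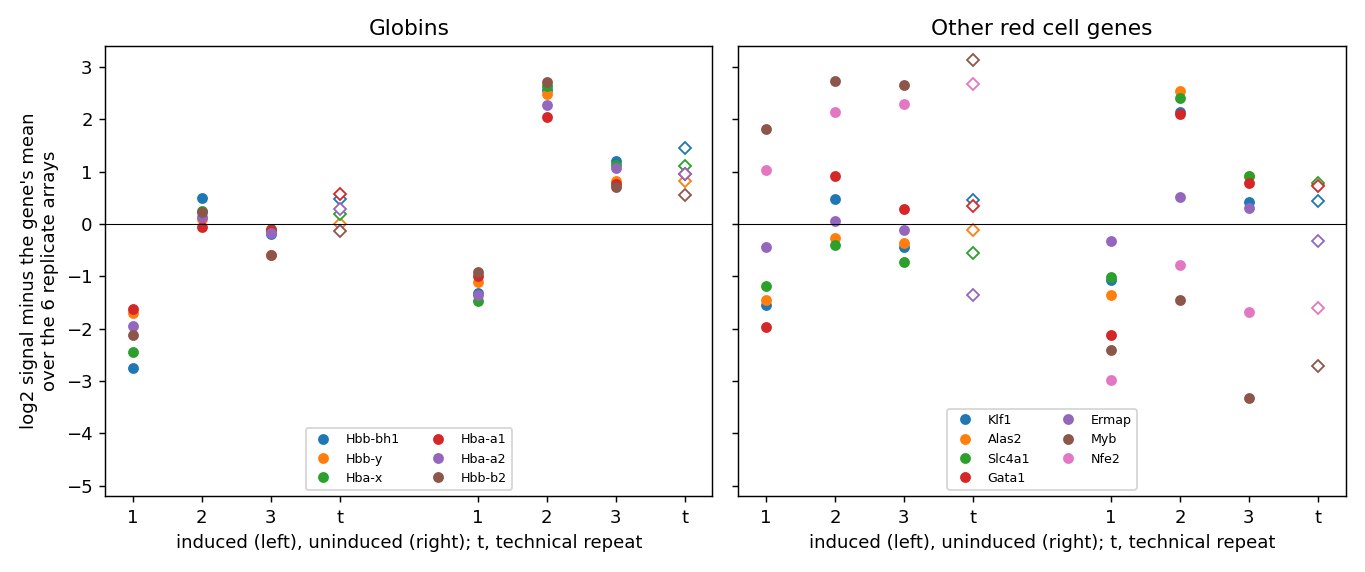
Level of each gene minus its mean over the 6 replicate arrays (log2), for the globin members (left panel) and for other red cell genes (right panel), on induced arrays 1 to 3 and the technical repeat t, then on uninduced ones. Globins, Klf1, Alas2, Slc4a1 and Gata1 are highest on uninduced replicate 2, whereas Myb and Nfe2 are higher on the induced arrays.

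Of 12 heme synthesis genes 0 fell and 0 rose in limma, with or without the block, and at an unadjusted p under 0.05 there were 0 without the block and 2 with it. Alas2, the red cell enzyme that starts heme synthesis, read -3.38, -2.20 and -2.29 in induced and -3.28, 0.61 and -1.01 in uninduced cells (change -1.40, SE 0.93, adjusted p 0.419 in limma, 0.125 with the block). The brightest members of the list, Urod and Alas1, changed by 0.30 (SE 0.13) and -0.39 (SE 0.18). Of 14 genes of iron uptake and heme handling, 0 fell and 2 rose, against 2.16% and 4.14% of all genes. The rises were Fth1, the ferritin heavy chain, by 0.69 (SE 0.14, adjusted p 0.0384 in limma) and Slc48a1, a heme transporter, by 1.12 (SE 0.25, adjusted p 0.049).

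Among 28 globin regulators, 2 fell and 4 rose, or 4 and 5 with the block. Of all genes 2.16% fell and 4.14% rose, or 6.81% and 9.37% with the block. Sox6, which represses embryonic globin genes in mouse red cells, fell by 2.43 (SE 0.52, adjusted p 0.0437 in limma), and Klf3, a repressor related to Klf1, by 0.81 (SE 0.18, adjusted p 0.0461). With spike-in scaling Klf3 changed sign, to 0.32. The rises were Myb, a factor of blood progenitors (4.79, SE 0.50, adjusted p 0.00408), Ikzf1, a lymphoid factor that also acts at globin genes (4.17, SE 0.46, adjusted p 0.00515), Nfe2, which binds the globin enhancers (3.63, SE 0.59, adjusted p 0.0182), and Zfpm1, the partner of Gata1 (1.03, SE 0.20, adjusted p 0.0324). Of the 3 uninduced arrays, 2 had Myb and 1 had Ikzf1 well above background, and the sizes depended on the background correction. With normexp the changes were 3.38 for Myb, 1.82 for Ikzf1 and -1.57 for Sox6. Klf1, the red cell factor that binds the CACCC boxes of globin promoters, changed by -1.0 (SE 0.86, adjusted p 0.521, and 0.0537 with the block). Gata1, the main red cell GATA factor, read -3.81, -0.92 and -1.56 in induced and -3.97, 0.25 and -1.06 in uninduced cells, a change of -0.50 (SE 1.19, adjusted p 0.824 in limma).

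Of 22 membrane and enzyme genes, 1 fell and 0 rose, and 3 fell and 2 rose with the block. The shares of all genes were 2.16% and 4.14%, and 6.81% and 9.37% with the block. Slc4a1, the anion exchanger band 3, read -3.06, -2.27 and -2.60 in induced and -2.89, 0.54 and -0.96 in uninduced cells (change -1.54, SE 0.80, adjusted p 0.317, and 0.0984 with the block). The 2 brightest, the antioxidant gene Prdx2 and the glucose transporter gene Slc2a1, changed by -0.32 (SE 0.17) and -0.55 (SE 0.35). Over 13 alternative settings of the gene-level fit to the scanner values without the block, Myb and Ikzf1 passed in the 12 that tested them and Nfe2 in 10 of 13, but Zfpm1 in 6, Fth1 in 5, Sox6 and Klf3 in 4 and Slc48a1 in 3. With the authors' table, columns as named, 0 of all genes passed in limma, and 224 had an unadjusted p under 0.05.

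**Figure D5:**
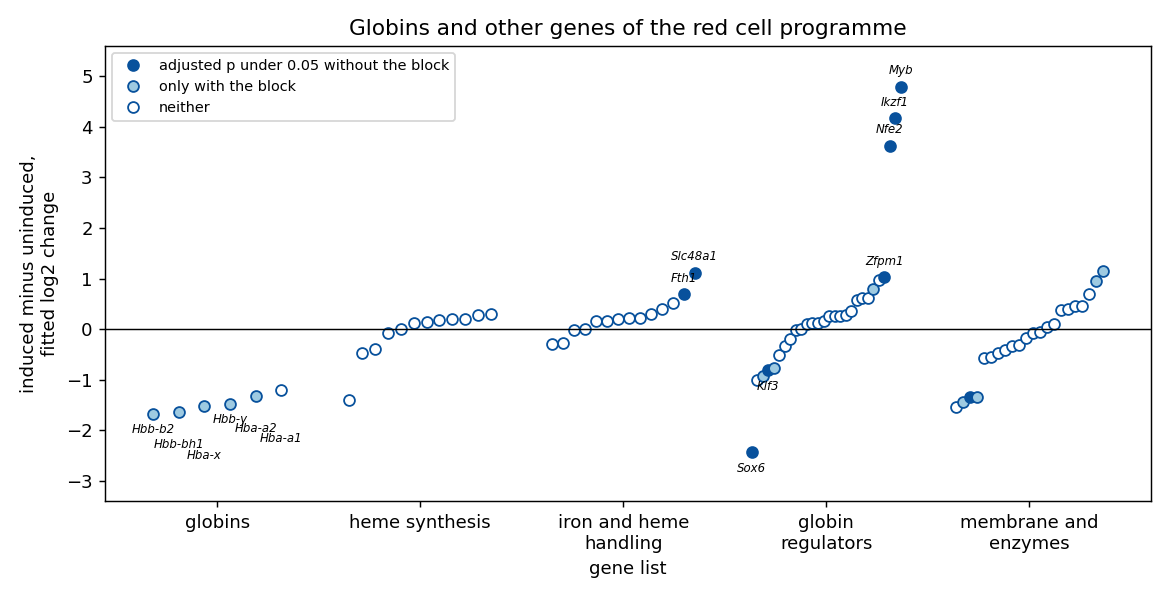
Fitted log2 change (induced minus uninduced) of every tested gene of the globin members and of 4 red cell lists, sorted within each list. Dark points passed in limma without the block, light points only with it, open points in neither; the 6 globins lie together between -1.20 and -1.67, while the other lists spread around 0.

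Markers of other cells moved between the groups as well, and their part in the globin values was not tested. The summed linear signal of the 8 endothelial markers, relative to the 75th percentile, was 56.7 to 114 on induced and 71.5 to 171 on uninduced arrays, and that of 6 red cell markers was 2.84 to 3.76 on induced and 2.20 to 7.44 on uninduced arrays. That of 5 macrophage and granulocyte markers (Csf1r, Lyz2, Mpo, Elane, Fcgr1) was 3.61 to 6.16 on induced and 6.77 to 9.84 on uninduced arrays, and that of 5 megakaryocyte and mast cell markers was 7.44 to 15.9 on induced and 1.63 to 3.79 on uninduced arrays. The largest term of the red cell sum on each replicate array was Epor, which changed by 0.12 (SE 0.20, adjusted p 0.740 in limma). The smaller terms Klf1, Gata1, Alas2 and Slc4a1 changed by -0.50 to -1.54. In the longer lists, 4 of 16 endothelial genes fell, Sox17, Ecscr, Tek and Eng, and 0 rose, against 2.16% of all genes that fell. With the block 10 of the 16 fell and 0 rose, against 6.81% of all genes that fell. Of the 16, 14 were lower in all 3 pairs, and their median change was -1.21. Of 8 macrophage and granulocyte genes Csf1r fell by 1.33 (SE 0.24) and Fcer1g and Ncf1 rose, or 1 fell and 4 rose with the block. Their median change was 0.92, opposite in sign to the difference in the summed signal. Of 8 megakaryocyte and mast cell genes Pf4 and Mcpt4 rose and 0 fell. Of all genes 2.16% fell and 4.14% rose, or 6.81% and 9.37% with the block. Of the 3 uninduced arrays, 0 had Lyz2, 2 had Ncf1 and 1 had Mcpt4 well above background. Those genes entered the test through the induced arrays, so their rises are not independent of the filter, and the median of 0.92 includes Lyz2 and Ncf1.

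With all globin genes left out of the ranking, the genes whose levels followed the mean of the 3 embryonic globins most closely over the 6 replicate arrays were Scel, Treml1, Crip3, Ndor1 and Slc38a5, with Pearson correlations of 0.990 to 0.995. These values describe 6 arrays whose replicates differ in common. Treml1, a receptor of the megakaryocyte lineage, changed by -1.51 (SE 0.96, adjusted p 0.399 in limma, 0.0363 with the block). Slc38a5, an amino acid transporter, changed by -2.35 (SE 1.38, adjusted p 0.366, and 0.0239 with the block) and spanned 6.42 log2 units over the 6 arrays. Ermap, a red cell surface protein, ranked 7 in likeness among the genes that are not globins, Klf1 ranked 10 and Alas2 ranked 23. These were the highest ranks within the 4 red cell lists, and Slc4a1 (0.94, rank 84) and Gata1 (0.94, rank 89) came next. Correlations within these lists ran from 0.99 for Ermap down to -0.90 for Tfrc. Whether the lists follow the globins as a set was not tested. Gypc had a correlation of 0.00, and Fech (-0.83, rank 13004) and Tfrc (-0.90, rank 13870) went the opposite way.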

How the data were processed

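The authors deposited Agilent Feature Extraction output (1 colour, Cy3) of 8 arrays, with spot intensity as processed, median and background signals, and quality flags in other columns. The software was, per the file headers, version 10.7.3.1, and per the submitters' processing notes 10.7.1.1, with limma. A table of spots on the log2 scale was deposited too, whose scaling and centring stay unknown (column medians 5.36 to 5.38). Of its 8 columns, 2 tracked the array they are named for and 6 another array, so it served only as an alternative. All 8 arrays lie on 1 slide and share 1 scan time.

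Control spots and outlier spots (114 to 246 per array) were left out, and 0 spots were saturated. Signals were divided by the array's 75th percentile, put on the log2 scale and averaged by probe. RefSeq accessions gave 26582 probes 1 symbol, 0 several and 29099 none. Probes stayed in where all 3 replicates of either group were well above background, and each gene was represented by the brightest of these. The number of arrays limits the precision.

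Two-sided tests were made with limma 3.58.1 under R 4.3.3, and p-values were adjusted by Benjamini and Hochberg's method across 14504 genes. The fit had no block. A fit with the replicate number as a block stands beside it, because same-numbered arrays deviated together (correlations 0.65, 0.45 and 0.43). The series' design text calls the replicates independent biological ones. The fit was tested on simulated data. Members and lists were chosen with earlier results of these data known.

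The text names every globin probe, list members past the threshold, the 2 brightest of a list where fewer passed, the red cell markers, and the 5 genes most alike over 6 arrays. Some genes of the lists are counted but not reported here by name. Fits with the block under other settings and the reading of the table by array were chosen after seeing the data.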

Additional observations from a re-analysis of the deposited data

How the results depend on the processing

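With the replicate block, 5 of 6 globins, 2346 of all genes and 16 red cell list genes passed, against 0, 915 and 9 without it. Together with the block, 6 globins passed with normexp, median centring and the authors' table read by array, 5 with quantile normalization and 3 of 7 globin probes with every probe in 1 fit. The same settings gave 4385, 2944, 2398, 2219 and 2897 genes or probes in all, and 27, 23, 17, 16 and 15 of the red cell lists. With spike-in scaling the median globin change was -0.37 with and without the block. The block with it called 12593 genes and 62 of the red cell lists but 0 globins, and without the block 5 of the red cell lists passed. The median change of all genes was then 1.22, and 98.5% of the called genes rose, against 76.9% with median centring and 65.7% in the fit reported. Without a filter 534 genes and 3 list genes passed, and with every probe in 1 fit 4 list probes. Leaving out 1 array gave a median globin change of -2.47 to -0.59, 0 globins, 358 to 822 genes and 2 to 7 list genes. Leaving out 1 pair under the block gave 3 to 6 globins, 1158 to 2106 genes and 8 to 16 list genes. The 4 arrays a group that include the technical repeats gave a median of -1.34, with no test. The authors' table with columns as named reversed the globins, since 6 columns tracked another array: the median was 1.83, and Hbb-bh1 2.44, Hba-x 2.27, Hba-a2 1.89, Hbb-y 1.77, Hbb-b2 1.72, Hba-a1 1.66 and Hbb-bt 0.95, with 0 genes called in limma, 0 of the red cell lists, and 224 at an unadjusted p under 0.05. Read by array, the median was -1.49 without the block. In the 26 other settings run the median stayed below 0. A slide block could not be fitted, because all arrays share 1 slide. Spike-in scaling adds 1.13, the mean shift of the 75th percentile against the spike-ins, to every gene's change, and why that percentile differed was not tested. For the remaining settings other than the authors' table as named the cause of the moves was not tested.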
